A study of Mus musculus with 6 samples.

Results

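The macrophage and myeloid lineage genes described here are 32 named genes of the 23420 in the deposited count table: Csf1r and its ligands, myeloid transcription factors, Fc receptors and their adaptors, complement C1q chains, and macrophage and granulocyte markers. They were chosen by name, with earlier results of these data known. The table lists 31 under the current symbol, and Spi1 under its older symbol Sfpi1. The RNA was that of endothelial cells from E12.5 (embryonic day 12.5) mouse embryos of the strain Csf1r-iCre;RosatdTomato, in which Cre under the Csf1r promoter switches on the red protein tdTomato for good. The cells were sorted from whole embryos as PECAM1+ CD45- CD11b- KIT- and split into a tdTom+ and a tdTom- fraction, with 3 libraries of each, numbered 1 to 3. Both fractions carry the same alleles and passed the same gate. A tdTom+ cell is therefore one in which the driver was active at some point, in the cell or in an ancestor, and tdTomato does not report its present Csf1r level. The labels give 3 embryos as the source but do not say which embryo gave which library.

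CSF1R is the receptor tyrosine kinase through which macrophages receive survival and growth signals, and it has a pair of ligands, CSF1 and IL34. The transcription factors PU.1 (encoded by Spi1), C/EBP-alpha, C/EBP-beta and IRF8 set up the myeloid programme, and the receptors, C1q chains and lysosomal proteins among the members belong to the mature phagocyte. In the mouse embryo the yolk sac forms erythro-myeloid progenitors, which give rise to tissue macrophages. The CD45 and CD11b gates remove most cells that carry these surface proteins, so the comparison asks how much myeloid RNA was found in tdTom+ cells, set against tdTom- cells that passed the same gates.

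Irf8 was the member that rose. It had 461, 348 and 715 counts in the tdTom+ libraries, against 162, 141 and 148 counts in the tdTom- libraries. Every tdTom+ library lay above every tdTom- library. In such bulk libraries, fewer cells of a type and less RNA per cell cannot be told apart. IRF8, an interferon regulatory factor of macrophages, dendritic cells and B cells, is encoded on chromosome 8 (120736358 to 120756694, plus strand, GENCODE M21 on GRCm38, the mm10 assembly). In CPM, read counts relative to the TMM-scaled library size, it averaged 46.4 ± 18.2 in tdTom+ cells, against 14.7 ± 2.47 in tdTom- cells (SD, n = 3 each). The fold change was 3.15, with a 95% interval of 2.08 to 4.78, and the log2 fold change 1.66 ± 0.27 (SE). With p-values adjusted over 13142 tested genes, edgeR gave 0.0144. Within the libraries that share a number, the log2 ratio of tdTom+ over tdTom- was 1.36, 1.42 and 2.01. The call ended without tdTom- library 1 (adjusted p = 0.0653), 2 (0.0791) or 3 (0.0784), while the log2 fold change stayed between 1.52 and 1.74 there. In the authors' deposited table, which gives tdTom- over tdTom+, Irf8 is listed with a log2 fold change of -1.656 and an adjusted p of 7.18e-07. The annotated gene Gm20388 overlaps Irf8 on the same strand, and its part in these counts was not tested.

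The promoter windows of 3 members are shown because their values set them apart: Irf8 as the member that rose, and C1qb and C1qc as neighbouring genes with unlike values. RefSeq's promoter table held 25 of the 32 members. The sequences are RefSeq's on GRCm38.p6, from 250 bases before to 50 bases after the transcription start, on the strand of the gene, at chr8:120736108-120736407 (plus strand), chr4:136886151-136886450 (minus) and chr4:136892865-136893164 (minus). Irf8 has a further start in that table, which is not shown. Capitals in Irf8 mark matches to TTCNNNGAA, the palindromic form of the sites that STAT dimers bind, and to TATAAA, the TATA box. Capitals in C1qb and C1qc mark GAGGAA on either strand, a core form of PU.1 sites.
Irf8: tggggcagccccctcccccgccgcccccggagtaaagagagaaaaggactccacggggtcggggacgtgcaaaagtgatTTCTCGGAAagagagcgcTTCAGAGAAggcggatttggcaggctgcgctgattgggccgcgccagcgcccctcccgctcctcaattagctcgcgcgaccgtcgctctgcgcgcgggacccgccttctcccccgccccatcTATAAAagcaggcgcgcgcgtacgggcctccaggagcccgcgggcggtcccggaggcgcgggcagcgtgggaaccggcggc
C1qb: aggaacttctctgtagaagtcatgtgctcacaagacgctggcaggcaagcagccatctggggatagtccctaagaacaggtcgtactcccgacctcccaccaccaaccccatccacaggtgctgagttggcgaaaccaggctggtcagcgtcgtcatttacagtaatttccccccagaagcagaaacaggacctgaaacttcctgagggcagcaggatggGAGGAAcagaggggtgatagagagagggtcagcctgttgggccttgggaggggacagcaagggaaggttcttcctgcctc
C1qc: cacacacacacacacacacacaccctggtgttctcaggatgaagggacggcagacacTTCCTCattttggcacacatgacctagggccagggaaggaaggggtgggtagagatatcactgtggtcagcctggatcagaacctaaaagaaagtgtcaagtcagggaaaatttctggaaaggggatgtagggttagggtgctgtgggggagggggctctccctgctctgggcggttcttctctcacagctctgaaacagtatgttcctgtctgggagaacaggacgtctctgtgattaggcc
Irf8 held TTCNNNGAA with first bases at -171 and -153 relative to the start, and TATAAA on the gene's strand at -31. C1qb held GAGGAA once on the gene's strand, at -30, and C1qc once on the other strand, at -193. Of 32851 promoter windows of this length, 8.3% held TTCNNNGAA, 28.3% GAGGAA and 13.6% TATAAA, each searched on both strands. These matches are letters in a window, and no binding was measured.

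Over the whole module, 20 of the 32 members had enough counts to test. Of these, 1 rose and 0 fell (quasi-likelihood F-test of edgeR, threshold 0.05 after Benjamini-Hochberg adjustment). Over all tested genes 101, or 0.769%, rose and 107, or 0.814%, fell. At an unadjusted p under 0.05, 3 members were higher, Irf8, Fcer1g and C1qb, and 0 were lower. That is 15% of the tested members, beside 10.7% of all tested genes. DESeq2 and limma-voom each called 1 member higher, Irf8, and 0 lower, and Irf8 is the 1 member with an adjusted p under 0.05 in the authors' deposited table. Over all 13142 tested genes, DESeq2 called 217 higher and 267 lower, and limma-voom 69 higher and 79 lower. The CPM values of both fractions did not overlap for 5 members, or 25%, beside 17.2% of all tested genes. The median log2 fold change of the tested members was 0.27, beside -0.00026 for all tested genes, and 16 of 20 were above 0, as were 6567 of 13142. The low-count filter can keep a gene through its higher fraction, so these figures describe the tested members and not all 32.

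**Figure D1:**
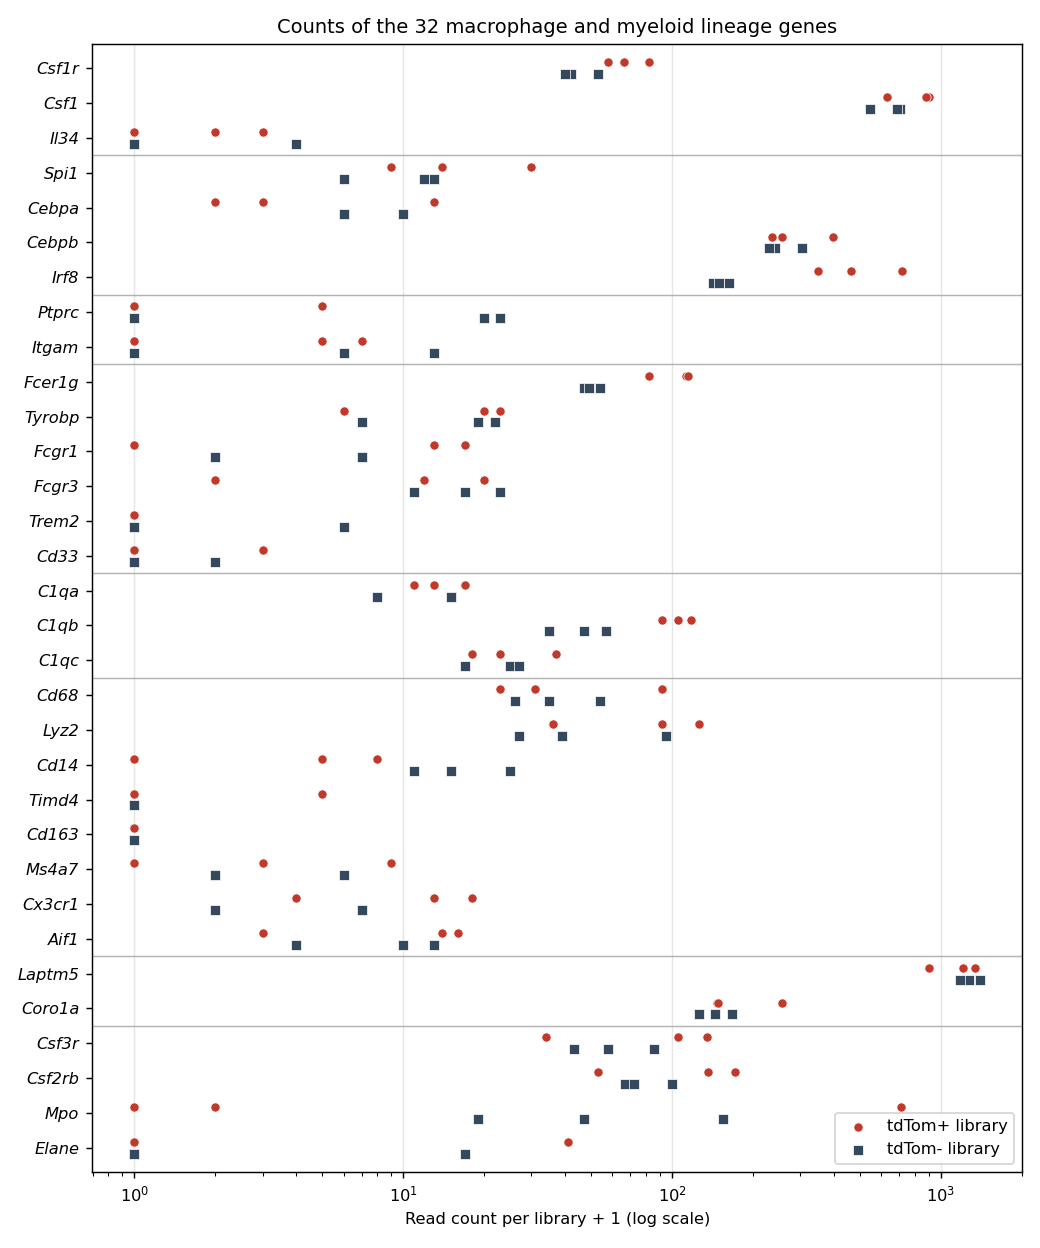
Read counts plus 1 (log scale) of the 32 members in each tdTom+ library (red circles) and tdTom- library (dark squares), grouped by role from the top. Irf8, at 348 to 715 counts in tdTom+ libraries against 141 to 162 counts in tdTom- libraries, separates by fraction, while Laptm5, Csf1 and Cebpb are abundant in both and Cd163 is at 0 throughout.

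**Figure D2:**
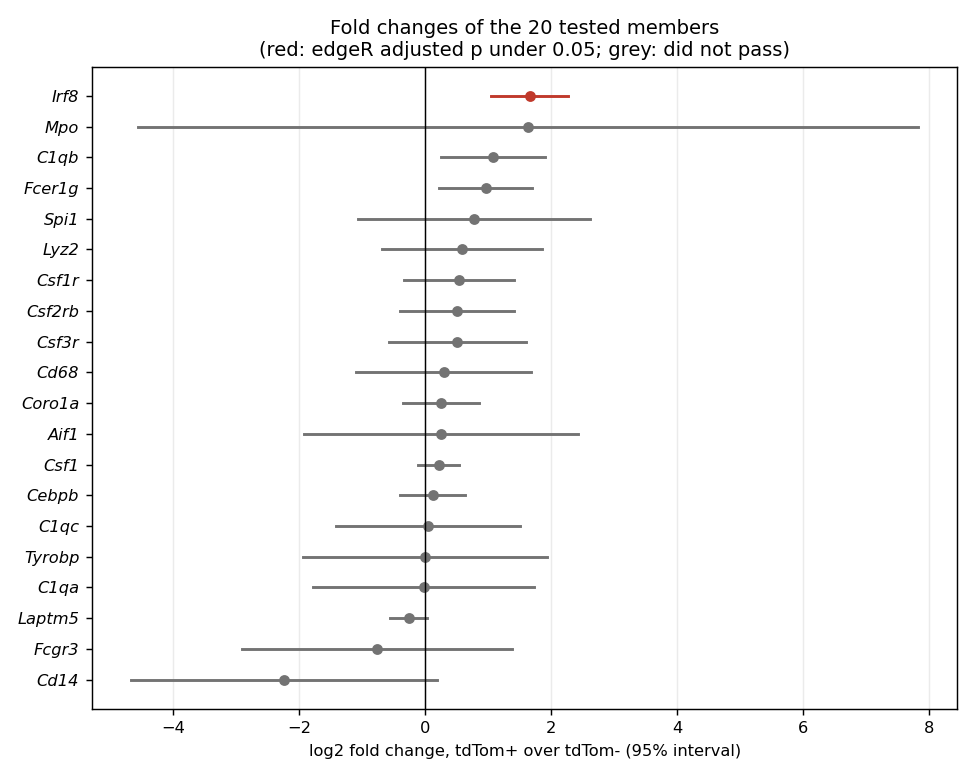
log2 fold change of tdTom+ over tdTom- for the 20 tested members, with 95% intervals from the edgeR fit. Irf8 (red, 1.66) passed; the intervals of Fcer1g and C1qb also lie above 0 but their adjusted p did not pass, and that of Mpo runs from -4.56 to 7.82.

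Csf1r, the gene whose promoter drives the Cre, was weakly expressed in both fractions. Csf1r had 65, 57 and 81 counts in tdTom+ libraries, against 41, 52 and 39 in tdTom- libraries. Its CPM values did not overlap, but the fold change of 1.45 did not pass, with a 95% interval of 0.793 to 2.65 (edgeR adjusted p = 0.719). Counts of Csf1r may include reads of Hmgxb3, which overlaps it on the opposite strand, as the library kit does not mark strand. Other members, among them Irf8, Cebpb, Coro1a and Cx3cr1, also overlap annotated genes. Csf1, the ligand made by many tissue cells, was among the abundant members. It had 902, 875 and 626 counts in tdTom+ libraries, against 703, 687 and 545 in tdTom- libraries. Its fractions overlapped in CPM, with a fold change of 1.16 and a 95% interval of 0.928 to 1.46 (edgeR adjusted p = 0.688). Il34, the ligand known from skin and brain, was at 2, 0 and 1 counts in tdTom+ libraries, against 0, 0 and 3 in tdTom- libraries, at or below the floor of 3 counts in each.

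Among the other transcription factors, Cebpb was well expressed and Spi1 and Cebpa were barely detected. Cebpb had 235, 255 and 396 counts in tdTom+ libraries, against 241, 303 and 228 in tdTom- libraries, which overlap, with a fold change of 1.09 and a 95% interval of 0.763 to 1.54 (edgeR adjusted p = 0.921). Spi1 had 8, 29 and 13 counts in tdTom+ libraries, against 12, 11 and 5 in tdTom- libraries, and did not pass (edgeR adjusted p = 0.834). Cebpa had 2, 1 and 12 counts in tdTom+ libraries, against 5, 9 and 5 in tdTom- libraries, too few to test. Per kilobase of annotated exon, Irf8 averaged 6.57 ± 2.58 CPM in tdTom+ cells, against 2.09 ± 0.349 in tdTom- cells (SD, n = 3 each). On the same scale Spi1 averaged 0.565 ± 0.376 in tdTom+ and 0.328 ± 0.113 in tdTom- cells, and Cebpa 0.176 ± 0.217 in tdTom+ and 0.228 ± 0.0543 in tdTom- cells.

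**Figure D3:**
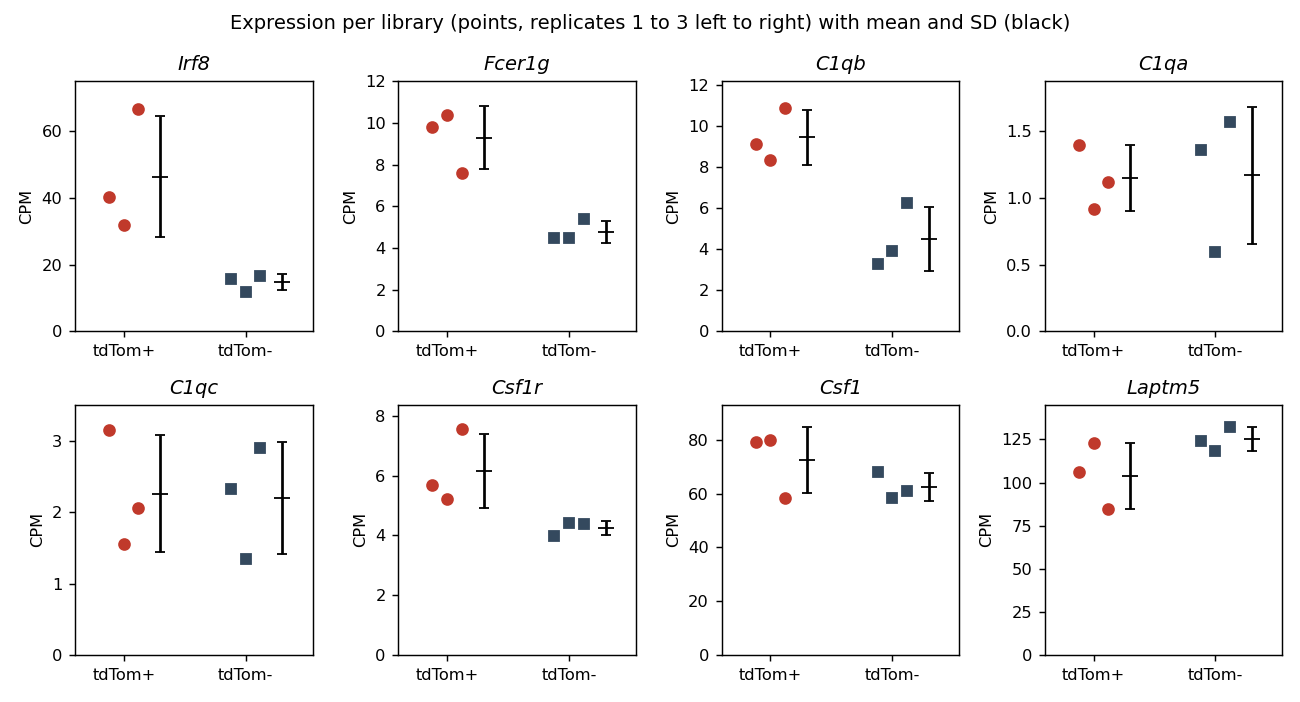
CPM of 8 members in each library, with tdTom+ (red circles) left of tdTom- (dark squares) and the mean with its SD in black (n = 3 each). Irf8, Fcer1g, C1qb and Csf1r do not overlap between fractions, while C1qa, C1qc, Csf1 and Laptm5 do.

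Ptprc and Itgam, the members that encode gated surface proteins, had few counts. Ptprc, which encodes CD45, had 0, 0 and 4 counts in tdTom+ libraries, against 19, 0 and 22 in tdTom- libraries. Itgam, which encodes CD11b, had 0, 4 and 6 counts in tdTom+ libraries, against 12, 0 and 5 in tdTom- libraries. Neither was tested. Kit, the gene of the other surface protein gated against and not a member, had 950, 1023 and 890 counts in tdTom+ libraries, against 1159, 1435 and 1108 in tdTom- libraries (edgeR adjusted p = 0.0581). When no low-count filter was used, the edgeR adjusted p of the untested members was 0.532, for Ptprc, or higher.

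The Fc receptor gamma chain gene was higher in each tdTom+ library, while its functional relatives were sparse. Fcer1g, whose product carries the signal of Fc receptors and of the platelet collagen receptor, had 112, 114 and 81 counts in tdTom+ libraries, against 46, 53 and 48 in tdTom- libraries. It averaged 9.28 ± 1.51 CPM in tdTom+ cells, against 4.77 ± 0.519 in tdTom- cells (SD, n = 3 each). The fractions did not overlap, yet the fold change of 1.94 did not pass, with a 95% interval of 1.16 to 3.24 (edgeR unadjusted p = 0.0159, adjusted p = 0.277). Gp6, the platelet collagen receptor gene and not a member, had 10, 39 and 4 counts in tdTom+ libraries, against 1, 0 and 0 in tdTom- libraries. Whether the platelet-lineage RNA had a part in the Fcer1g values was not tested.

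Tyrobp, the DAP12 adaptor of macrophage receptors, had 5, 22 and 19 counts in tdTom+ libraries, against 18, 21 and 6 in tdTom- libraries, a log2 fold change of 0.0014 with a 95% interval of -1.94 to 1.94. Fcgr3, a low-affinity IgG receptor gene, had 11, 1 and 19 counts in tdTom+ libraries, against 16, 10 and 22 in tdTom- libraries. Both overlapped between the fractions and neither passed (edgeR adjusted p = 0.999 and 0.872). Fcgr1, the high-affinity IgG receptor gene, had 16, 12 and 0 counts in tdTom+ libraries, against 1, 6 and 6 in tdTom- libraries. Trem2, a lipid-sensing receptor gene of microglia and other macrophages, was at 0 in all tdTom+ libraries and at 0, 0 and 5 counts in tdTom- libraries, and Cd33, a sialic acid-binding lectin gene, did not exceed 2 counts in any library.

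The genes for the C1q chains, which assemble into the first component of the classical complement pathway, had unlike point estimates. They lie side by side on chromosome 4 on the minus strand, C1qb at 136880129 to 136886187, C1qc at 136889804 to 136893065 and C1qa at 136895917 to 136898803 (GENCODE M21, GRCm38). C1qb had 104, 91 and 117 counts in tdTom+ libraries, against 34, 46 and 56 in tdTom- libraries, with no overlap. Its fold change of 2.11, with a 95% interval of 1.20 to 3.73, did not pass (edgeR unadjusted p = 0.0146, adjusted p = 0.267). C1qa had 16, 10 and 12 counts in tdTom+ libraries, against 14, 7 and 14 in tdTom- libraries, a fold change of 0.985 with an interval of 0.292 to 3.33. C1qc had 36, 17 and 22 counts in tdTom+ libraries, against 24, 16 and 26 in tdTom- libraries, a fold change of 1.03 with an interval of 0.377 to 2.82. Both overlapped between fractions, and the intervals include the fold change of C1qb. The difference between C1qb and the other chains was not tested. Per kilobase of annotated exon, C1qb stood at 8.70 ± 1.23 CPM in tdTom+ cells and 4.12 ± 1.44 in tdTom- cells (SD, n = 3 each). On that scale C1qa stood at 1.1 ± 0.236 in tdTom+ and 1.13 ± 0.493 in tdTom- cells, and C1qc at 1.17 ± 0.424 in tdTom+ and 1.14 ± 0.407 in tdTom- cells.

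Phagocyte markers were low, and the tested ones other than Cd14 overlapped between fractions. Lyz2, the macrophage lysozyme gene, had 35, 125 and 91 counts in tdTom+ libraries, against 94, 38 and 26 in tdTom- libraries. Cd68, a lysosomal glycoprotein gene, had 22, 30 and 91 counts in tdTom+ libraries, against 25, 53 and 34 in tdTom- libraries. Both overlapped, with adjusted p = 0.806 and 0.929 (edgeR). Cd14, the lipopolysaccharide co-receptor gene, ran the other way, with 4, 7 and 0 counts in tdTom+ libraries, against 10, 14 and 24 in tdTom- libraries. Its values did not overlap, but the log2 fold change of -2.24, with a 95% interval of -4.66 to 0.19, did not pass (edgeR unadjusted p = 0.0669, adjusted p = 0.523). Aif1, which encodes the macrophage protein IBA1, had 15, 2 and 13 counts in tdTom+ libraries, against 12, 9 and 3 in tdTom- libraries (edgeR adjusted p = 0.966). Lyz1, the close copy of Lyz2 with which reads could be shared, had at most 2 counts in any library.

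The markers most specific to tissue macrophages were at the edge of detection. Cx3cr1, the fractalkine receptor gene of microglia and other embryonic macrophages, had 12, 3 and 17 counts in tdTom+ libraries, against 1, 6 and 6 in tdTom- libraries. Ms4a7 had 8, 0 and 2 counts in tdTom+ libraries, against 1, 5 and 1 in tdTom- libraries. Timd4, a phosphatidylserine receptor gene of resident macrophages, had 4 counts in tdTom+ library 1 and 0 elsewhere. Cd163, the haemoglobin scavenger receptor gene, had 0 counts in all 6 libraries. A count of 0 allows up to 3 counts per library, or 0.254 to 0.336 CPM at these depths. Adgre1, which encodes the macrophage antigen F4/80 and is listed as Emr1, is not a member and had 1, 0 and 31 counts in tdTom+ libraries, against 8, 5 and 3 in tdTom- libraries.

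The pan-haematopoietic members were abundant in both fractions. Laptm5, a lysosomal membrane protein gene best known from blood cells, had 1206, 1339 and 904 counts in tdTom+ libraries, against 1274, 1397 and 1180 in tdTom- libraries. Its fold change was 0.837 with a 95% interval of 0.683 to 1.03 (edgeR adjusted p = 0.550). Coro1a, an actin-binding coronin gene of leukocytes, had 146, 256 and 147 counts in tdTom+ libraries, against 144, 166 and 125 in tdTom- libraries (edgeR adjusted p = 0.838). Laptm5 and Csf1 together made up 49.6% of all member counts in tdTom+ and 62.9% in tdTom- cells. Per kilobase, Laptm5 led the members with 27.5 ± 5.04 CPM in tdTom+ cells, against 32.9 ± 1.84 in tdTom- cells, followed by Cebpb with 17.9 ± 5.85 in tdTom+ and 16.5 ± 0.849 in tdTom- cells (SD, n = 3 each). Next was Csf1, with 13.7 ± 2.31 in tdTom+ and 11.8 ± 0.979 in tdTom- cells. Cebpb and Csf1 lay within 1 SD of Cebpb of each other in tdTom+ cells. Fcer1g came after them with 10.6 ± 1.73 in tdTom+ and 5.46 ± 0.594 in tdTom- cells, and Csf1r was far down the order with 1.07 ± 0.215 in tdTom+ and 0.736 ± 0.0408 in tdTom- cells. The endothelial marker Pecam1 stood at 133 ± 9.21 CPM per kilobase in tdTom+ and 149 ± 5.83 in tdTom- cells (SD, n = 3 each).

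Primary granule genes were unevenly spread over the libraries of both fractions. Mpo, the myeloperoxidase gene of primary granules, had 0, 707 and 1 counts in tdTom+ libraries, against 154, 46 and 18 in tdTom- libraries. Elane, the neutrophil elastase gene, had 0, 40 and 0 counts in tdTom+ libraries, against 16, 0 and 0 in tdTom- libraries. Most of these counts came from tdTom+ library 2, and tdTom- library 1 was next. Prtn3 and Ctsg, the other main primary granule proteases and not members, had 11 and 10 counts in tdTom+ library 2, and 15 and 12 counts in tdTom- library 1. The log2 fold change of Mpo was 1.63 ± 2.31 (SE, edgeR adjusted p = 0.893), and without tdTom+ library 2 it turned to -6.93 with an adjusted p of 0.0446. Mpo thus has no direction that holds across the libraries, and the authors' deposited table gives no p-value for it.

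The libraries with transcripts of later granulocytes were partly others. Ltf, Ngp, Camp, S100a8 and S100a9, which encode secondary granule proteins and calprotectin, summed to 357, 161 and 0 counts in tdTom+ libraries, against 252, 13 and 10 in tdTom- libraries. The 4 primary granule genes summed to 0, 768 and 2 counts in tdTom+ libraries, against 197, 49 and 23 in tdTom- libraries. In tdTom+ library 1 the later genes were thus present without the primary granule genes, and tdTom+ library 3 held almost no counts of either kind. Both groupings were made after the values were seen.

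**Figure D4:**
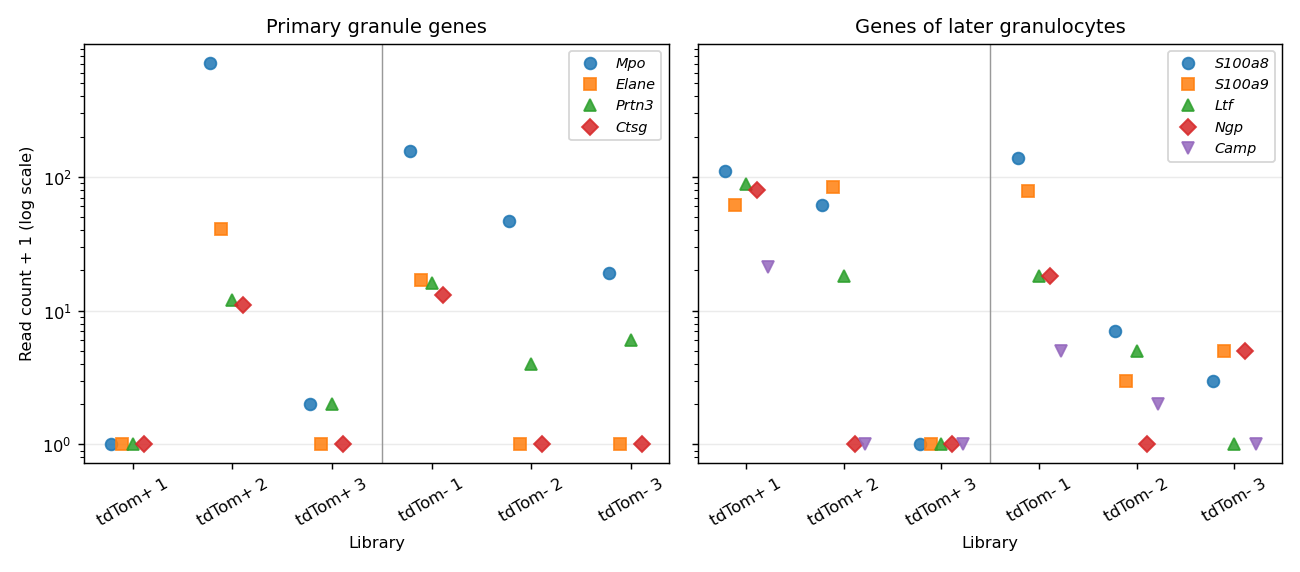
Read counts plus 1 (log scale) of primary granule genes (left) and genes of later granulocytes (right) in each library, with the tdTom+ libraries left of the grey line. Mpo reaches 707 counts in tdTom+ library 2 but 0 and 1 in the other tdTom+ libraries, and the sum of the later genes is highest in tdTom+ library 1 (357 counts) and tdTom- library 1 (252 counts).

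The granulocyte cytokine receptors were present in all libraries. Csf3r, the receptor gene for granulocyte colony-stimulating factor, had 33, 104 and 134 counts in tdTom+ libraries, against 57, 85 and 42 in tdTom- libraries. Csf2rb, which encodes the beta chain shared by the receptors for GM-CSF, IL-3 and IL-5, had 135, 171 and 52 counts in tdTom+ libraries, against 66, 99 and 71 in tdTom- libraries. Both overlapped, with fold changes of 1.43 and 1.42 that did not pass (edgeR adjusted p = 0.802 and 0.751). Csf2rb2, the closely related mouse gene for an IL-3 receptor beta chain and not a member, had 93, 176 and 132 counts in tdTom+ libraries, against 35, 18 and 13 in tdTom- libraries. Its fold change of 5.71, with a 95% interval of 2.84 to 11.5, passed (edgeR adjusted p = 0.0234), but not without tdTom+ library 2 (0.0691), without tdTom- library 2 (0.117) or 3 (0.123), or with limma-voom (0.0734). Since Csf2rb and Csf2rb2 are near copies, the split of reads between them is uncertain.

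Beyond the members, 1 gene of the signalling list, the cytokine receptor gene Csf2rb2, passed in the main fit. Of 21 genes of CSF1R signal transduction, its binding partners and related cytokine receptors, a list that includes Csf2rb2, 20 were tested, 1 rose, which was Csf2rb2, and 0 fell. At an unadjusted p under 0.05 the counts were 1 and 1, with DESeq2 1 and 0, and with limma-voom 0 and 0. Over all tested genes 0.769% rose, 0.814% fell and 10.7% had an unadjusted p under 0.05 (edgeR). The list's median log2 fold change was 0.18, beside -0.00026 for all tested genes. Src, the prototype Src-family kinase gene, averaged 32.5 ± 1.31 CPM in tdTom+ cells, against 44.1 ± 6.77 in tdTom- cells (SD, n = 3 each), without passing (edgeR adjusted p = 0.304). The Src-family kinase gene Lyn and the ubiquitin ligase gene Cbl did not pass either (edgeR adjusted p = 0.504 and 0.521), at log2 fold changes of 0.22 ± 0.10 for Lyn and 0.38 ± 0.19 for Cbl (SE).

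Of 31 other macrophage genes, 15 were tested, and Mrc1 and P2ry12 rose while 0 fell. At an unadjusted p under 0.05, 4 were higher and 0 lower, and DESeq2 called 2 and 0, limma-voom 1 and 0. The median log2 fold change was 0.51, beside -0.00026 for all tested genes. Of all tested genes, 0.769% rose, 0.814% fell and 10.7% had an unadjusted p under 0.05 (edgeR). Mrc1, the mannose receptor gene, which liver sinusoidal endothelium also expresses, had 1196, 642 and 1180 counts in tdTom+ libraries, against 256, 306 and 300 in tdTom- libraries, a fold change of 3.25 (edgeR adjusted p = 0.00522). P2ry12, an ADP receptor gene of microglia and of platelets, had 50, 19 and 42 counts in tdTom+ libraries, against 0, 1 and 1 in tdTom- libraries. It passed the low-count filter only through its tdTom+ counts, so it could not have been called lower. The ratio of its summed counts, scaled by the summed library sizes, was 52.2, with an exact 95% binomial interval of 14.1 to 436 that covers counting error only (edgeR adjusted p = 0.0273). The P2ry12 call ended without any 1 library other than tdTom+ library 2 (edgeR gave 0.0504 to 0.159), and limma-voom gave 0.0961. Tlr4, the lipopolysaccharide receptor gene, did not pass (edgeR adjusted p = 0.275), at a log2 fold change of 0.69 ± 0.24 (SE). Of 13 other granulocyte genes, 12 were in the table and 4 were tested, with 0 called in either direction by edgeR, DESeq2 or limma-voom and 0 at an unadjusted p under 0.05.

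Of the marker lists of other cells, the platelet and sinusoidal lists had higher sums in every tdTom+ library. The mast cell and hepatoblast sums were lower in every tdTom+ library, and the core endothelial, erythroid, lymphoid and mesenchyme sums overlapped. The 16 megakaryocyte and platelet genes summed to 364, 658 and 424 CPM in tdTom+ and 90.5, 102 and 108 CPM in tdTom- libraries, with 9 of 15 tested genes higher and 0 lower by edgeR, 13 higher by DESeq2 and 5 by limma-voom. Of all tested genes, edgeR called 0.769% higher and 0.814% lower. Several of the platelet genes passed the low-count filter through tdTom+ libraries, such as Tubb1, with 10, 13 and 0 counts in tdTom- libraries. Such genes could hardly have been called lower. The 15 liver sinusoidal genes summed to 3480, 3128 and 3456 CPM in tdTom+ and 1564, 1445 and 1500 CPM in tdTom- libraries, with 12 of 14 tested higher and 0 lower by edgeR, 12 higher by DESeq2 and 11 by limma-voom. At an unadjusted p under 0.05 (edgeR), 12 were higher and 1 lower. Mrc1 is 1 of the 12 and also stands in the list of other macrophage genes. The platelet and sinusoidal sums did not overlap between fractions, as was the case for Irf8, Fcer1g, C1qb and Csf1r and, in the other direction, for Cd14. No overlap is common, as it held for 17.2% of all tested genes. The part of platelet-lineage and sinusoidal cells in the values of these members was not tested. The 8 phagocyte markers among the members summed to 8.77, 15.3 and 20 CPM in tdTom+ and 13.9, 10.6 and 10.5 CPM in tdTom- libraries, which overlap. In counts these sums were 100, 167 and 214 against 143, 125 and 94. The Fc receptor and adaptor group did not overlap, at 12.6, 13.6 and 11.3 CPM in tdTom+ and 7.95, 7.62 and 9.74 CPM in tdTom- libraries. Nor, by a small margin, did the C1q group, at 13.7, 10.8 and 14.1 CPM in tdTom+ and 6.98, 5.84 and 10.7 CPM in tdTom- libraries. Fcer1g and C1qb are the most abundant genes of these groups. Of the 14 lymphoid genes 7 were at 0 in every library, among them the B-cell genes Ms4a1 and Pax5. The 15 core endothelial genes summed to 10754 to 11573 CPM in tdTom+ and 11068 to 11377 CPM in tdTom- libraries, with 0 of 15 called by edgeR, DESeq2 or limma-voom and 1 lower at an unadjusted p under 0.05.

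The erythroid list summed to 295 to 389 CPM in tdTom+ and 228 to 333 CPM in tdTom- libraries, with 3 of 11 tested genes higher and 0 lower by edgeR, 5 higher by DESeq2 and 1 by limma-voom. Gata1, a transcription factor gene of both lineages, is 1 of these 3 and also stands in the platelet list. The lymphoid list summed to 6.75 to 10.3 CPM in tdTom+ and 8.89 to 9.85 CPM in tdTom- libraries, and the mast cell and basophil list to 172 to 190 CPM in tdTom+ and 211 to 233 CPM in tdTom- libraries. Nearly all of the mast cell and basophil sum was Kit and Gata2, which other cells also express. Kit averaged 86.7 ± 5.99 CPM in tdTom+ cells, against 119 ± 6.10 in tdTom- cells, and Gata2 85.3 ± 3.27 CPM in tdTom+ cells, against 99.0 ± 6.27 in tdTom- cells (SD, n = 3 each). The mast cell protease genes Cma1, Tpsb2 and Mcpt4 were at 0 in every library. The hepatoblast list summed to 161 to 175 CPM in tdTom+ and 210 to 458 CPM in tdTom- libraries, and the mesenchyme and mural list to 183 to 688 CPM in tdTom+ and 493 to 1163 CPM in tdTom- libraries. With edgeR, 0 genes of the lymphoid, mast cell, hepatoblast and mesenchyme lists passed, while 5 were lower at an unadjusted p under 0.05, and DESeq2 called 2 of them lower and limma-voom 0. The 32 members together summed to 315, 423 and 334 CPM in tdTom+ and 311, 278 and 304 CPM in tdTom- libraries. The members' sum therefore did not overlap either, though tdTom+ library 1 exceeded the highest tdTom- library by a small margin. Irf8 alone gave 40.4, 31.9 and 66.8 CPM of it in tdTom+ and 15.7, 11.9 and 16.6 CPM in tdTom- libraries. Without Irf8 the sums of the fractions overlap. Mpo gave 64.7 CPM of the sum in tdTom+ library 2.

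**Figure D5:**
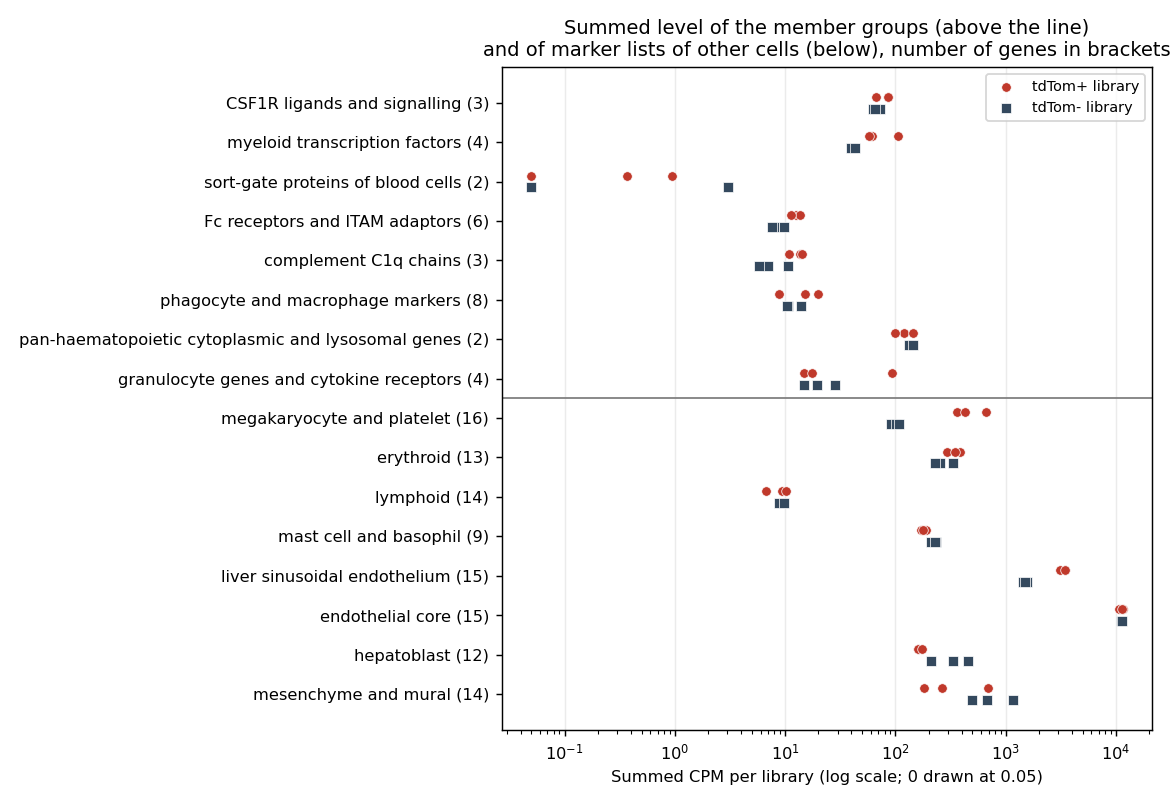
Summed CPM per library (log scale) of the 8 member groups (above the line) and of marker lists of other cells (below), with tdTom+ libraries as red circles above tdTom- libraries as dark squares. Platelet and sinusoidal lists are higher in all tdTom+ libraries, as are the transcription factor, Fc receptor and C1q groups of the members. The phagocyte marker group overlaps, and the group of Ptprc and Itgam has the lowest sums of the member groups.

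Library totals ran from 8919887 to 11767956 counts. Both libraries numbered 3 had the X-inactivation transcript Xist, with 1224 counts in tdTom+ and 571 counts in tdTom- cells, where the other libraries had at most 8, so that sex was balanced between the fractions.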

How the data were processed

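RNA was amplified with the SMART-seq V4 kit and made into libraries with Nextera XT, per the labels' protocols. The count values were deposited by the authors as raw read counts per gene symbol and library. Tools listed in the submitters' processing notes, without roles, are featureCounts 1.4.6, STAR 2.5.2b, DESeq2, Trimmomatic 0.36.4 and Picard 2.7.1.1, and the build is mm10. Their log2 ratio (tdTom- over tdTom+) and p-value columns are quoted as deposited by the authors. Counts are reads and not molecules, so floors and binomial intervals cover counting error only.

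Groups came from the titles. Genes were fitted with edgeR 4.0.16 in R 4.3.3 (TMM, the filterByExpr low-count filter at 10, robust quasi-likelihood F-test, two-sided, no block), adjusted over 13142 genes. Log2 fold changes are tdTom+ minus tdTom-, the SE is the size of that change over the root of F, and intervals use its total degrees of freedom. The common biological coefficient of variation was 23.2%. The fit was tested on simulated data. Exon lengths are GENCODE M21 unions, while the annotation and strand setting behind the counts are not given in the sources used here. Replicate libraries differed beyond sampling noise (chi-square per gene from 8.18 to 19.7). P-values measure the spread between these libraries. Alternatives were another scaling, other filters, DESeq2 1.42.0, limma-voom 3.58.1, a replicate block and leaving out each library. The members and lists were chosen with earlier results of these data known. All members are described, and of the other lists at most 4 genes with the smallest p, of which 1 is not reported here. Gp6, Kit, Gata1, Gata2, Cma1, Tpsb2, Mcpt4, Adgre1, Prtn3, Ctsg, Lyz1, Ms4a1, Pax5, Pecam1 and those under the other observations were named after their values were seen.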

Additional observations from a re-analysis of the deposited data

How the results depend on the processing

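Of 233 recomputed values of the 20 tested members, 206 kept direction and side of the threshold. Irf8 kept its call under both other filters, the other scaling, DESeq2, limma-voom, the replicate block and without any tdTom+ library (adjusted p from 1.1e-06 to 0.0436). It lost the call without any tdTom- library, so that leaving out 1 library gave 0 to 1 members higher and 0 to 1 lower (Mpo, without tdTom+ library 2). The number of all genes higher was 217 with DESeq2 and 37 to 97 with 1 library left out, and of all genes lower 267 and 25 to 92, beside 101 and 107. With the replicate block, 128 were higher and 167 lower. Deviations of same-numbered libraries from their group means correlated at r = 0.105, 0.0892 and 0.161, each the highest for both of its libraries. Sex went with the number too, as both libraries numbered 3 had Xist counts well above the others. A shared embryo per number is therefore possible, but the labels do not name one. The main fit treated all libraries as independent, and the replicate block is the alternative that pairs them by number. The block changed no call of a member. The log2 fold change turned for Tyrobp with the other scaling (-0.00045), without a filter (-0.0002), with limma-voom (-0.21) and the block (-0.088), for C1qa with limma-voom (0.11) and the block (0.048), for Aif1 with limma-voom (-0.019), and for Mpo with limma-voom (-2.83) and the block (-1.29). With 1 library left out it ranged from -0.18 to 0.28 for Cebpb, -0.35 to 0.43 for Tyrobp, -0.35 to 0.23 for C1qa, -0.28 to 0.29 for C1qc, -0.61 to 0.65 for Cd68, -0.12 to 0.73 for Aif1, -0.078 to 0.41 for Coro1a and -6.93 to 2.85 for Mpo. The cause was not tested. The log2 ratio of the members' summed CPM was 0.27, and 0.13 to 0.35 with 1 library left out. Members under about 20 counts have intervals over several fold, so smaller differences were not detectable at this depth.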

Other observations

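Several leukocyte genes outside the members were well expressed in both fractions while Ptprc had at most 22 counts in any library. Lcp1, which encodes the leukocyte actin bundler L-plastin, stood at 493 ± 85.2 CPM in tdTom+ cells, against 504 ± 31.9 in tdTom- cells (SD, n = 3 each). Inpp5d, a phosphatase gene of blood cells, averaged 104 ± 29.9 CPM in tdTom+ cells, against 90.5 ± 11.7 in tdTom- cells. Cd79b, a B-cell receptor subunit gene, had 55, 72 and 91 counts in tdTom+ libraries, against 65, 74 and 80 in tdTom- libraries. Its partner Cd79a had 5, 10 and 7 counts in tdTom+ libraries, against 13, 2 and 3 in tdTom- libraries. The mast cell protease gene Cpa3 had 48, 0 and 0 counts in tdTom+ libraries, against 0, 5 and 54 in tdTom- libraries. Msr1, a macrophage scavenger receptor gene, had 46, 1 and 36 counts in tdTom+ libraries, against 3, 3 and 6 in tdTom- libraries.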
